A study of Mus musculus with 30 samples.

Results

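Nefl, Nefm, Des, Vim, Nes, Dcx and Tubb3 encode cytoskeletal proteins that are known from neurons, from muscle or from both. They were followed in mouse extraocular muscle, which turns the eyeball, grown in culture, through every probe set that the platform annotation gives to 1 of these symbols alone. A probe set is a group of short oligonucleotides on the array that together report 1 transcript. Of the 45265 probe sets measured, 22690 of A type and 22575 of B type, 16 met this rule, of which 15 were on A arrays and 1 was on B arrays. Because the 7 genes were chosen by how their values in these same arrays changed over time, their values are given as a description: where a change is said to have passed the threshold of the fit to all probe sets, that describes its size against the spread between arrays and is no independent test of these genes.

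Total RNA was measured on the 2 Affymetrix array types at 0, 4, 12, 24 and 48 h, with 3 arrays per time and type and 30 arrays in all. The labels give no strain, age, genotype or agent, and they leave unsaid what 0 h refers to, if the 3 replicates of a time came from different cultures, and if 1 RNA was put on both an A and a B array. Any adjusted p therefore covers the spread between arrays alone, and that spread may be technical. The source name of B array 0 h replicate 1 was leg muscle although its title was extraocular muscle, and the title was followed.

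Intermediate filaments are rope-like polymers whose protein subunits differ between cell types. Neurofilament light and medium, the products of Nefl and Nefm, build the filaments of axons, desmin (Des) links the myofibrils of muscle fibres, vimentin (Vim) is the filament protein of mesenchymal cells, and nestin (Nes) marks neural progenitors and is also made by muscle precursors and at the neuromuscular and myotendinous junctions. Doublecortin (Dcx) binds and stabilises microtubules in migrating young neurons, and Tubb3 encodes the beta-tubulin isotype that is widely used as a neuronal marker.

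The neurofilament genes fell and the doublecortin and Tubb3 genes rose over the 48 h, while no probe set of Des, Vim or Nes passed the threshold at any time. Values are linear intensities as deposited, each relative to its own array because the arrays had been scaled to a common mean, and total RNA per cell cannot be read from them. Changes are log2 differences of intensity plus 16 with their standard error, in which changes of dim probe sets are understated. Probe sets whose mean over the 15 arrays of a type fell short of the 40th percentile were not tested; that limit was an intensity of 101 for A arrays and 199.6 for B arrays. This left 14 of the 15 A array probe sets and the 1 B array probe set of the 7 genes. A change is said to have passed the threshold where limma's Benjamini-Hochberg adjusted p over all probe sets tested on that array type was below 0.05, and "rose" and "fell" are used only of those.

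On the A arrays, none of the 14 probe sets passed at 4 h, where 0.0295% of all probe sets tested did. At 12 h 1 passed, lower than at 0 h, against 0.368% of all tested, and at 24 h 2 passed, both lower, against 5.56%. At 48 h 5 passed, 3 higher and 2 lower, against 6.7% of all tested, 4.2% higher and 2.5% lower. The 3 values at 24 h did not overlap the 3 at 0 h for 8 of the 14 probe sets, against 24.3% of all tested, and at 48 h for 10 of the 14, against 24%. Between neighbouring times none of the 14 passed: the shares of all tested were 0.295% for 12 h against 4 h, 0.0884% for 24 h against 12 h and 0.626% for 48 h against 24 h. On the B arrays the single Nefl probe set did not pass at 4 or 12 h, where 0% and 0.074% of all tested did, and it passed at 24 and 48 h, where 0.97% and 0.933% did. Since the choice of genes used these contrasts, nothing is read from the counts. The median log2 change of the 14 probe sets was 0.07 at 24 h and 0.08 at 48 h, beside -0.01 and 0.02 over all A array probe sets tested.

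**Figure D1:**
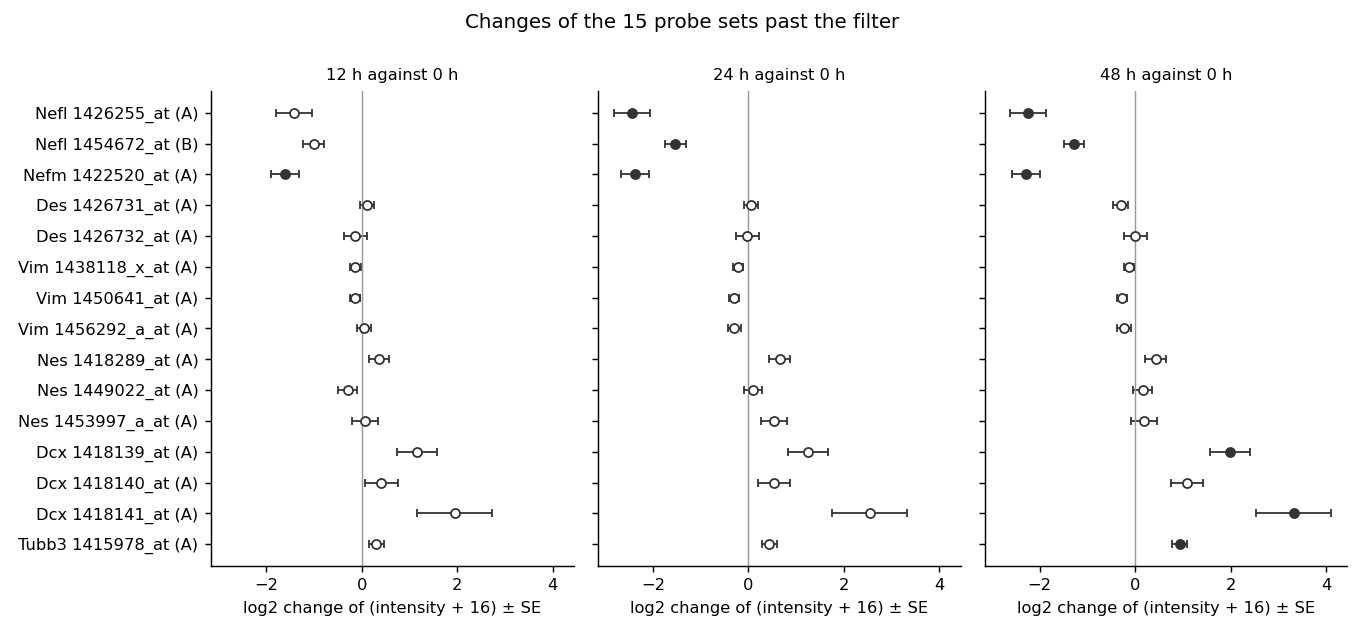
Log2 change of intensity plus 16 (horizontal axis) for each of the 15 probe sets past the filter, at 12, 24 and 48 h against 0 h, with bars for the standard error and n = 3 arrays per time. Filled points passed the threshold: the 3 neurofilament probe sets lie left of 0 at 24 and 48 h, and Tubb3 and 2 Dcx probe sets lie right of 0 at 48 h.

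Nefm, the medium neurofilament subunit, was measured by 1 probe set, 1422520_at on the A arrays. Its intensities in replicates 1, 2 and 3 were 304.4, 264.3 and 251.4 at 0 h, 175.3, 196.0 and 164.5 at 4 h, and 74.7, 86.0 and 76.0 at 12 h. At 24 h they were 48.4, 66.8 and 15.8, and at 48 h they were 60.6, 40.7 and 31.4. Each time up to 24 h lay wholly below the one before it, while the arrays at 48 h and 24 h overlapped. The mean intensity was 44.2 ± 14.9 at 48 h, against 273.4 ± 27.6 at 0 h (SD, n = 3 each). The log2 change from 0 h was -0.57 ± 0.30 at 4 h and did not pass. On the log2 scale Nefm fell by 1.61 ± 0.30 at 12 h, it fell by 2.38 ± 0.30 at 24 h, and it fell by 2.29 ± 0.30 at 48 h. The call at 12 h was lost when 0 h replicate 1 or 2 or 12 h replicate 1 or 2 was left out, with log2 changes of -1.53 to -1.66, and under 5 of the 8 other settings in which the probe set was tested, whereas those at 24 and 48 h held in every setting that kept the probe set and without each array in turn. A fall in a mixture of cells can come from fewer cells of a type or from less RNA per cell, and these arrays do not separate those cases, which cannot be told apart.

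Nefl, the light subunit without which the other neurofilament proteins do not assemble into filaments in the mouse, was measured on both array types. On the A arrays its probe set 1426255_at read 324.5, 261.2 and 309.3 at 0 h, 170.3, 166.7 and 187.7 at 4 h, and 113.6, 77.7 and 117.8 at 12 h. It read 65.0, 49.2 and 21.0 at 24 h and 80.0, 85.2 and 13.9 at 48 h. As for Nefm, each time up to 24 h lay below the preceding one without overlap, and the lowest array at both late times was replicate 3. The mean was 59.7 ± 39.7 at 48 h and 298.3 ± 33.0 at 0 h (SD, n = 3 each). The log2 changes at 4 and 12 h, -0.72 ± 0.38 and -1.41 ± 0.38, did not pass, and the 12 h value passed with a pseudocount of 64 or without 48 h replicate 3. Nefl fell by 2.43 ± 0.38 at 24 h and fell by 2.24 ± 0.38 at 48 h on the log2 scale, and the log2 change at 48 h was -1.67 without 48 h replicate 3 and still passed.

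The B array probe set of Nefl, 1454672_at, gave 1662.7, 1272.4 and 1654.2 at 0 h, 1152.3, 1223.2 and 924.3 at 4 h, and 666.5, 838.5 and 755.8 at 12 h. The B intensities were 615.7, 612.7 and 361.1 at 24 h and 728.3, 625.6 and 509.0 at 48 h. The order over time was the one seen on the A arrays, with no overlap between neighbouring times up to 24 h and overlap between 48 h and 24 h. The log2 change at 4 h was -0.47 ± 0.22, that at 12 h had a 95% interval of -1.46 to -0.54, and neither passed. On the B arrays Nefl fell by 1.53 ± 0.22 at 24 h and fell by 1.28 ± 0.22 at 48 h, and both calls held under all 9 other settings and without each of the 15 arrays, the one labelled leg muscle among them. A and B arrays were scaled separately, so the intensities of the 2 Nefl probe sets are not compared as levels.

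The interval of the last step, 48 h against 24 h, spanned 0 for all 3 neurofilament probe sets: the log2 change was 0.09 with a 95% interval of -0.53 to 0.72 for Nefm, 0.19 (-0.61 to 0.99) for Nefl on the A arrays and 0.25 (-0.21 to 0.71) on the B arrays. Nefl and Nefm lie next to each other on chromosome 14, with no other protein-coding gene between them in the RefSeq mouse gene order. Across the 15 A arrays their log2 values correlated with Pearson r 0.933 and Spearman rho 0.9. After each time's mean was taken off, r was 0.609, beside 0.713 between Nefm and Vim 1438118_x_at and 0.642 between Nefl and the same Vim probe set. These arrays share a time course and an array-wide scaling, and the correlation is a description. Both A array probe sets passed the filter through their early values: at 24 and 48 h every array of both read below the filter's 101.

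**Figure D2:**
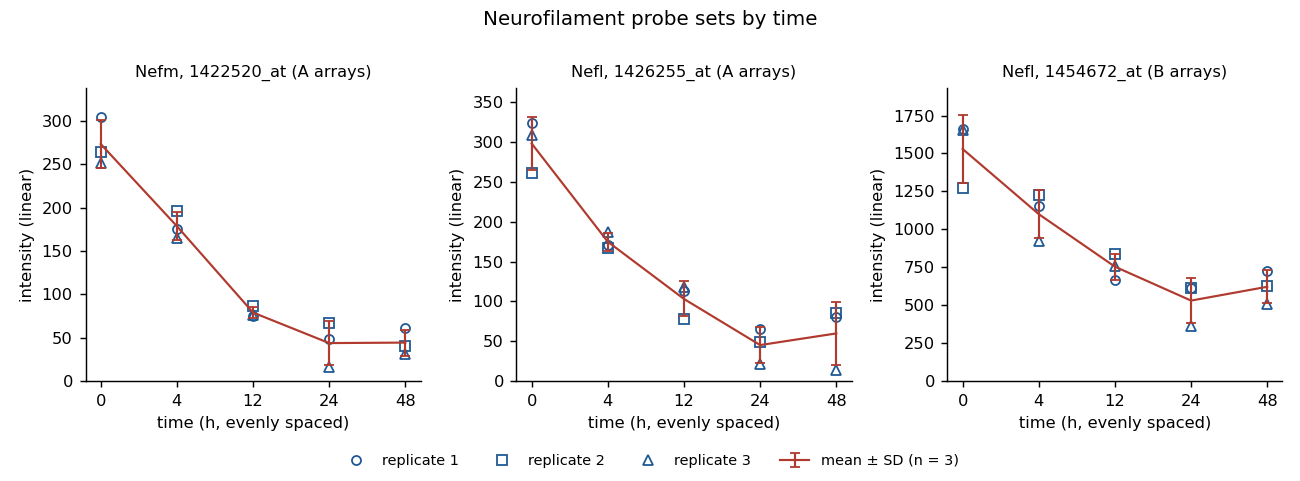
Linear intensity (vertical axis) of the 3 neurofilament probe sets at 0, 4, 12, 24 and 48 h (horizontal axis, times evenly spaced). Symbols are the 3 arrays of each time, and the line and bars are their mean and SD: all 3 arrays at 24 and at 48 h lie below all 3 at 0 h in every panel.

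The other neuronal filament genes gave little signal. Nefh, the heavy neurofilament subunit, and Ina, alpha-internexin, were below the filter and were not tested. Prph encodes peripherin, the filament protein of peripheral neurons, and its log2 change was -0.34 ± 0.38 at 24 h and -0.07 ± 0.38 at 48 h, neither past the threshold. Of 18 neuron markers, 8 were bright enough to test and none passed at 4, 12, 24 or 48 h, with a median log2 change of -0.17 at 24 h and -0.03 at 48 h. The other 10, Snap25, Syp, Elavl3, Elavl4, Eno2, Thy1, Gad1, Slc17a6, Ina and Nefh, were below the filter. Of all A array probe sets tested, 0.0295% passed at 4 h, 0.368% at 12 h, 5.56% at 24 h and 6.7% at 48 h. On the B arrays, which held some of the 8 markers, the shares were 0%, 0.074%, 0.97% and 0.933%. With shares this small, nothing is read from the lack of calls among 8 genes. The summed intensity of the 5 neuron markers tested on the A arrays ranged from 716.6 to 1000.6 over the arrays at 0 h, from 716.5 to 909.9 at 24 h and from 726.8 to 1103.4 at 48 h, so the groups overlapped. Uchl1 averaged 392.7 at 0 h and made the largest part of this sum, while Elavl2, Isl1, Prph and Stmn2 averaged 82.4 to 153.9. The part of the neuron markers in the neurofilament values was not tested.

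Doublecortin was covered by 4 A array probe sets. The brightest at 48 h, 1418141_at, read 40.4, 11.6 and 340.2 at 0 h, 33.1, 342.5 and 31.3 at 4 h, and 235.6, 168.3 and 667.1 at 12 h. It read 327.1, 533.5 and 558.7 at 24 h and 877.6, 670.8 and 874.9 at 48 h. 1 array stood far above the others at 0 h (replicate 3) and at 4 h (replicate 2), and only the arrays at 48 h lay wholly above those at 0 h. The mean was 808 ± 119 at 48 h, against 131 ± 182 at 0 h (SD, n = 3 each), and Dcx rose by a log2 of 3.32 ± 0.78. This call was lost without 0 h replicate 1 (log2 change 3.04), 0 h replicate 2 (2.53), 48 h replicate 1 (3.25) or 48 h replicate 3 (3.25), and the log2 change was 4.37 without 0 h replicate 3. At 24 h the log2 change of 2.54 ± 0.78 did not pass, but it passed without 0 h replicate 3, as 3.59, or without 4 h replicate 2.

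The Dcx probe set 1418139_at read 332.2, 318.9 and 270.8 at 48 h, against 18.8, 98.5 and 119.3 at 0 h. The 3 arrays at 48 h all lay well above the highest at 0 h, and those at the times between ranged from 49.9 to 229.5. It rose by a log2 of 1.99 ± 0.42 at 48 h, which passed under all 8 settings that kept it and without each array in turn, with a log2 change of 1.37 without 0 h replicate 1. A further probe set, 1418140_at, read 179.5, 228.7 and 182.6 at 48 h and 77.0, 79.6 and 95.6 at 0 h. Its log2 change of 1.09 ± 0.34 (95% interval 0.37 to 1.80) did not pass, and it passed with the replicate block, with a pseudocount of 64, with only the times compared, or without 4 h replicate 1 or 2. The remaining one, 1448974_at, lay below the filter, with 94.2, 97.8 and 163.2 at 48 h against 44.5, 38.3 and 46.7 at 0 h. The means of 1418139_at and 1418140_at at 0 and 4 h lay below the filter's 101, so both passed the filter through their later values. In all 4 Dcx probe sets every array at 48 h read above every array at 0 h. Across the 15 arrays, Pearson r between pairs of them ranged from 0.661 to 0.843.

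Tubb3, which has a single probe set here (1415978_at), gave 149.6, 112.2 and 154.7 at 0 h, 155.2, 156.6 and 152.4 at 4 h, and 165.2, 175.5 and 182.2 at 12 h. The intensities were 199.7, 205.2 and 172.9 at 24 h and 248.1, 278.4 and 305.0 at 48 h. The arrays at 12, 24 and 48 h all lay above those at 0 h, and those at 24 h overlapped those at 12 h. The mean was 277.2 ± 28.5 at 48 h and 138.8 ± 23.2 at 0 h (SD, n = 3 each). The log2 change was 0.15 ± 0.16 at 4 h, 0.31 ± 0.16 at 12 h and 0.44 ± 0.16 at 24 h, none past the threshold. Tubb3 rose by a log2 of 0.93 ± 0.16 at 48 h, a call that held in the 8 settings that kept the probe set and without each array in turn. The step from 24 to 48 h was 0.49 with a 95% interval of 0.15 to 0.83, and did not pass.

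**Figure D3:**
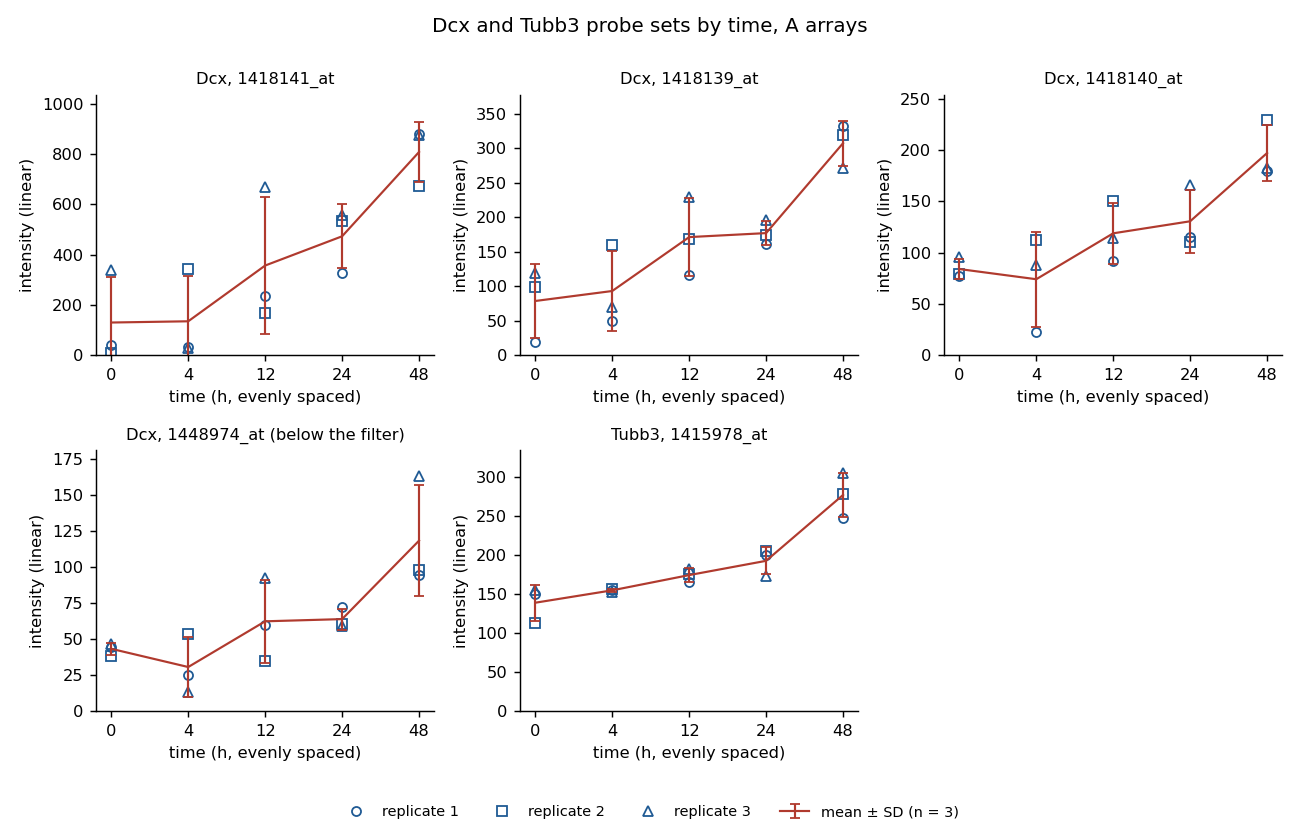
Linear intensity (vertical axis) of the 4 Dcx probe sets and the Tubb3 probe set on the A arrays at 0, 4, 12, 24 and 48 h (horizontal axis, times evenly spaced). Symbols are single arrays, the line is their mean and the bars are the SD, which runs below 0 and off the panel for 1418141_at at 0 and 4 h. All 3 arrays at 48 h lie above all 3 at 0 h in each panel.

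For the 2 genes that rose and for Des, the muscle gene of the set, the 250 bases before the RefSeq transcription start are shown from the GRCm38.p6 table, to which 5 of the 7 genes could be matched and Nefl and Nefm could not. The windows are chrX:143933220-143933469 on the minus strand for the more upstream of 2 listed Dcx starts, chr8:123411303-123411552 on the plus strand for Tubb3 and chr1:75360042-75360291 on the plus strand for Des. Capitals mark matches on either strand to the letters CANNTG (the E-box), to GGGCGG (the GC box) and to TATAAA (the TATA box). The CArG box and the MEF2 site were also searched by name and had no match in these windows.
Dcx: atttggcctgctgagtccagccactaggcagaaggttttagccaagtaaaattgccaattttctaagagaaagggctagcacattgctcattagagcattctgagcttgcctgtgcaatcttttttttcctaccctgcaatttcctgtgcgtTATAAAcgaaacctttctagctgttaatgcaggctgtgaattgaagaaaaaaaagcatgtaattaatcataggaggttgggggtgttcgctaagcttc
Tubb3: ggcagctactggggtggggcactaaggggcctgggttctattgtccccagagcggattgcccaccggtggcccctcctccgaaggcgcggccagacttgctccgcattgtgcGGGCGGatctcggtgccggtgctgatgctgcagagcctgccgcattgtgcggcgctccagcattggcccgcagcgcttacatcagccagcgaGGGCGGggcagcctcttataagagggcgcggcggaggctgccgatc
Des: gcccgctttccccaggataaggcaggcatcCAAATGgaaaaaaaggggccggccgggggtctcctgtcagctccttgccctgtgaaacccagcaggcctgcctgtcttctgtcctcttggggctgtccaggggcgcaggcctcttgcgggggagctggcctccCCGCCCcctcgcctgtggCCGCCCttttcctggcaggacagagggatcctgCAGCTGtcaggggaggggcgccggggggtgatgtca
The Dcx window held 1 TATA box 98 bases before the start, the Tubb3 window 2 GC boxes 138 and 46 bases before it, and the Des window 2 E-boxes, 220 and 36 bases before it, and 2 GC boxes, 87 and 69 bases before it. The E-box, the site of the MyoD family and of other basic helix-loop-helix factors, occurred in 66.2% of all 32851 promoter windows of this length, the GC box in 32.7%, the TATA box in 12.4%, the CArG box in 1.47% and the MEF2 site in 2.92%. Beyond these, the Vim window held 1 TATA box and the Nes window 2 GC boxes. A match says only that the letters are there.

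Des, whose protein is the main intermediate filament of muscle, read 3514.9, 3615.7 and 3269.6 at 48 h in its brighter probe set, 1426731_at, against 5282.8, 3663.2 and 4067.0 at 0 h. The highest array at 48 h lay just below the lowest at 0 h. At 4, 12 and 24 h the arrays ranged from 3764.8 to 5411.7 and overlapped those at 0 h. The log2 change at 48 h was -0.31 ± 0.15, with a 95% interval of -0.62 to 0.01, and did not pass. The dimmer Des probe set, 1426732_at, ranged from 92.2 to 218.3 over all 15 arrays and differed at 48 h by a log2 of -0.00 (-0.51 to 0.50). Across arrays the 2 Des probe sets correlated with Pearson r 0.044.

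Vim was measured by 3 probe sets. The brightest, 1450641_at, read 17652.3, 17929.5 and 13948.2 at 48 h, against 21267.7, 19767.6 and 18577.7 at 0 h, and the groups did not overlap. The highest intensity of any probe set on an A array ranged from 17393.9 to 27194.2, so this probe set lay near the top of the scale. Its log2 change was -0.31 ± 0.10 at 24 h and -0.27 ± 0.10 at 48 h, neither past the threshold, although the 24 h value passed without 48 h replicate 3. The probe set 1438118_x_at, whose suffix marks oligonucleotides that may bind other transcripts, averaged 8326 ± 572 at 48 h and 9125 ± 918 at 0 h (SD, n = 3 each), a log2 change of -0.13 (95% interval -0.36 to 0.10). For 1456292_a_at, whose suffix marks several transcripts of 1 gene, the means were 5744 ± 276 and 6757 ± 740 at those times and the log2 change was -0.23 (-0.53 to 0.08). Under quantile normalization the sign turned for 1450641_at at 24 h, to 0.04, and for 1438118_x_at at 48 h, to 0.06, so no direction is given for Vim.

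Nes, too, had 3 probe sets. The brightest, 1449022_at, averaged 3041 ± 253 at 48 h, against 2801 ± 757 at 0 h (SD, n = 3 each), with arrays at 0 h between 1948.2 and 3395.0 and a log2 change of 0.15 (95% interval -0.25 to 0.56), or -0.09 without 0 h replicate 3. Its lowest mean was at 12 h, 2222 ± 73. In 1418289_at the arrays read 1530.1, 1132.3 and 1303.1 at 24 h, against 800.1, 1013.5 and 698.7 at 0 h, and the groups did not overlap. The log2 change was 0.65 ± 0.22 at 24 h and 0.43 ± 0.22 at 48 h. The third, 1453997_a_at, read 477.9, 479.9 and 552.1 at 24 h, against 348.8, 393.7 and 286.2 at 0 h, a log2 change of 0.54 ± 0.28, and 0.18 ± 0.28 at 48 h. The last 2 probe sets were highest at 24 h. None of these changes passed, and both 24 h values did so without 4 h replicate 2.

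**Figure D4:**
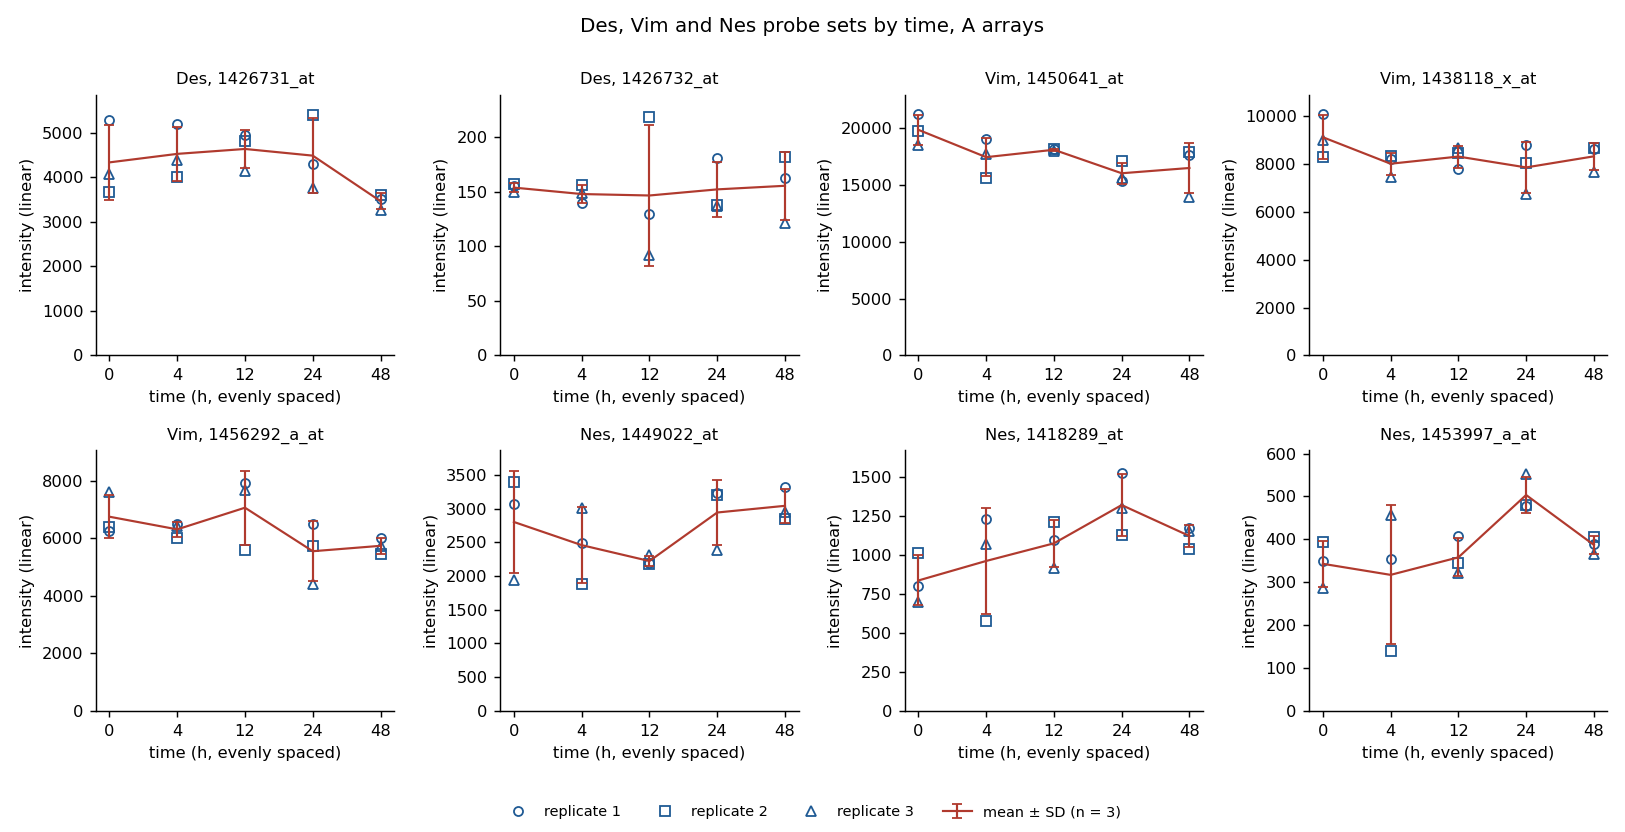
Linear intensity (vertical axis) of the 8 Des, Vim and Nes probe sets on the A arrays at 0, 4, 12, 24 and 48 h (horizontal axis, times evenly spaced), with the 3 arrays of each time as symbols and their mean and SD as line and bars. No panel holds a change past the threshold, and 2 of the 3 Nes probe sets have their highest mean at 24 h.

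Among 10 of 18 other intermediate filament genes that were bright enough to test, none passed at 24 h and 1 fell at 48 h, with a median log2 change of -0.03. Of all A array probe sets tested, 5.56% passed at 24 h and 6.7% at 48 h. The largest log2 change of this list was that of Gfap on the B arrays, 1.40 ± 0.53 at 24 h and 1.01 ± 0.53 at 48 h, and neither passed. Krt10, a keratin of differentiating epidermis, fell by 0.65 ± 0.18 at 48 h (limma adjusted p = 0.0394), a call kept in 6 of 8 settings and without 6 of the 15 arrays. Lmna, the nuclear lamin A/C gene, which is likewise an intermediate filament gene, had a log2 change of -0.35 ± 0.10 at 48 h (limma adjusted p = 0.0508). That value is from its brightest A array probe set, and its 3 other tested probe sets are not given here. Plectin, dystonin, alpha-B crystallin and other linkers and chaperones of these filaments gave no call at any time in the 8 of 11 genes tested. Cryab, the desmin chaperone alpha-B crystallin, averaged 6250 ± 1503 at 24 h and 3501 ± 666 at 0 h (SD, n = 3 each), a log2 change of 0.82 ± 0.26 that did not pass (limma adjusted p = 0.0754). For Cryab, too, 1 other tested probe set is not given here.

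Of 18 other tubulin genes 13 were tested, 1 rose at 24 h and none passed at 48 h, where the median log2 change was -0.11. On the A arrays 5.56% of all probe sets tested passed at 24 h and 6.7% at 48 h. Tubb2b, a beta-tubulin of developing neurons, rose by 0.63 ± 0.17 at 24 h (limma adjusted p = 0.0346) and stood at 0.03 ± 0.17 at 48 h, and the 24 h call was kept in 5 of 9 settings and without 11 of the 15 arrays. Of 34 microtubule-associated and growth cone genes 26 were tested, with a median log2 change of 0.09 at 48 h. Dclk1, a kinase with the same microtubule-binding domain as doublecortin, was the 1 gene of these past the threshold, at both times. Its brightest A array probe set averaged 2516 ± 254 at 48 h, 2491 ± 375 at 24 h and 1629 ± 250 at 0 h (SD, n = 3 each). Dclk1 rose by 0.61 ± 0.16 at 24 h and by 0.63 ± 0.16 at 48 h (limma adjusted p = 0.0305 and 0.0219), and both calls were lost without each of 4 arrays in turn; the 24 h call was kept in 5 of 9 settings and the 48 h call in 8 of 9. Its other A array probe sets had log2 changes of 0.13 to 0.95 at 24 h, of which the 0.79 and the 0.95 passed. At 48 h those probe sets had 0.53 to 0.70, and only the 0.70 passed. Its 3 B array probe sets had 1.25, 0.91 and -0.10 at 24 h, of which the 0.91 passed. At 48 h the B array values were 1.62, 0.82 and -0.05, of which the 0.82 passed (limma adjusted p = 0.0493). Gap43 and Map2, a growth cone protein and a dendritic microtubule protein, were below the filter, and Mapt, the tau gene, had a log2 change of 0.16 ± 0.26 at 48 h on the B arrays.

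**Figure D5:**
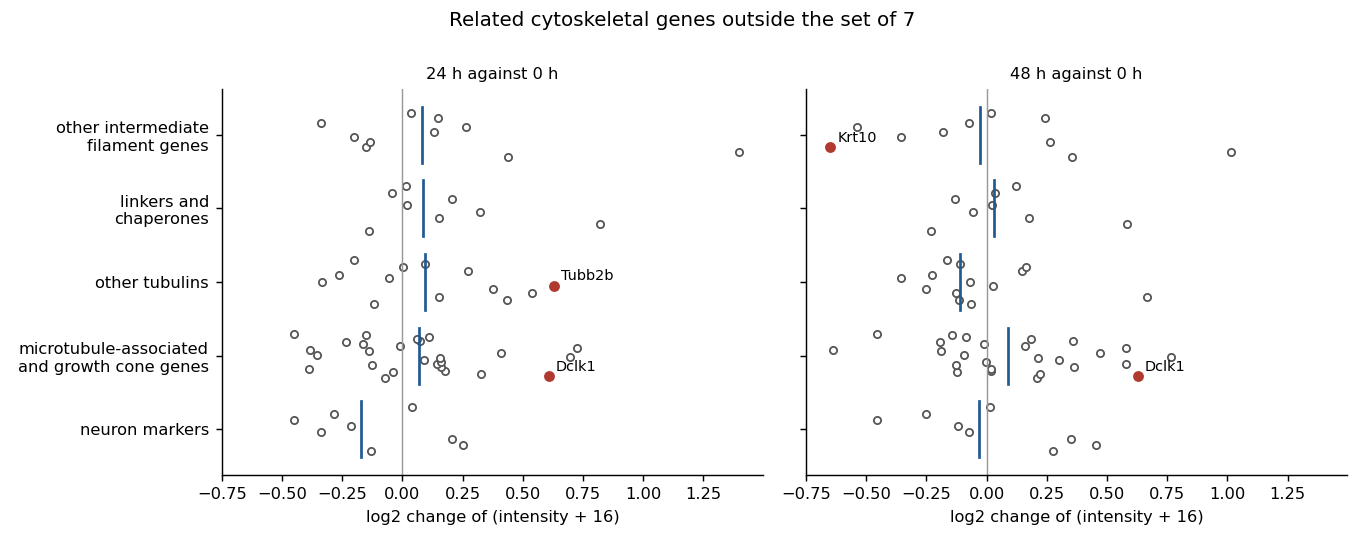
Log2 change of intensity plus 16 (horizontal axis) of each tested gene in 5 lists of related genes, 1 probe set per gene, at 24 and 48 h against 0 h. Points are genes, filled and named where they passed the threshold, and the vertical bars are the list medians, which lie between -0.17 and 0.10.

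Markers of the cultured cells were read on the same arrays. Of all A array probe sets tested, 5.56% passed at 24 h and 6.7% at 48 h. Of 16 skeletal muscle markers 14 were tested, 7 rose at 24 h, and 6 rose and 1 fell at 48 h. Myh8, the perinatal myosin heavy chain, rose by 1.98 ± 0.26 at 48 h, Tnnc2, fast troponin C, by 1.63 ± 0.21, Actn2, the Z-disc actinin, by 1.85 ± 0.25 and Mb, myoglobin, by 1.43 ± 0.28, while Myod1, the myogenic regulator, fell by 0.73 ± 0.18. The Myod1 call was lost without 0 h replicate 1 or 2 or 48 h replicate 1 or 3, with log2 changes of -0.96 to -0.61 over the arrays left out. That call is of the A array probe set. A second tested Myod1 probe set, on the B arrays, had the opposite sign at 48 h, with a log2 change of 0.21 that did not pass. The summed intensity of the 14 ranged from 63609 to 68920 over the arrays at 0 h, from 73915 to 103263 at 24 h and from 77473 to 93830 at 48 h, so the sum was higher on every array at the late times, while 11 of the 14 genes had a log2 change above 0 at 48 h. Of 8 smooth muscle and pericyte markers tested, 5 rose at 24 h (Pdgfrb, Tagln, Smtn, Notch3 and Mcam) and 4 at 48 h, all of those except Smtn. The rest of those tested, Acta2, Cspg4 and Rgs5, did not pass at either time. Their log2 changes were 0.03, 0.18 and -0.35 at 24 h, and -0.16, 0.40 and -0.20 at 48 h. At 48 h the Notch3 call was kept in 4 of 9 settings and lost in the others, the replicate block among them. With each of the 15 arrays left out in turn, the 48 h call was kept in 6 runs for Notch3, in 12 for Tagln and in 13 for Mcam. A second tested Notch3 probe set had a log2 change of 0.43 at 24 h and at 48 h, and neither passed. For Pdgfrb, the second tested probe set had a log2 change of 1.11 at 24 h, which passed, and 0.81 at 48 h, which did not. Of 5 fibroblast markers tested, Postn and Col3a1 rose at both times, and Col1a2, Dcn and Pdgfra had log2 changes of -0.05, -0.16 and -0.21 at 48 h and did not pass. Postn averaged 30.3, 38.9 and 60.1 at 0, 4 and 12 h, each below the filter limit of the A arrays. Its means were 156.1 ± 21.8 at 24 h and 294.6 ± 162.6 at 48 h (SD, n = 3 each). Postn thus passed the filter through the later values in which it was called higher. The Col3a1 calls were lost with median scaling, and at 24 h also without 0 h replicate 1 or 24 h replicate 2 or 3. These calls are of 1 Col3a1 probe set, and its other tested probe set had log2 changes of 0.66 at 24 h and 0.54 at 48 h. Neither of those passed. Egr2, of 6 Schwann cell and glia markers tested, fell by 1.21 ± 0.22 at 24 h and fell by 1.94 ± 0.22 at 48 h. It is the myelination regulator of Schwann cells and also an immediate early gene of many cells, and Sox10, a defining Schwann cell gene, had a log2 change of 0.17 ± 0.22 at 48 h. Gfap, Erbb3, Pmp22 and Mbp, the rest of those tested, had log2 changes of 1.01, 0.36, 0.18 and -0.23 at 48 h. None of them passed at 24 or 48 h. Of the endothelial and macrophage markers 1 and 3 were tested and none passed. The part of these markers in the values of the 7 genes was not tested.

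For each of the 7 genes, the A array probe sets of other genes with the highest Pearson r over the 15 arrays are given as a description. Each r rests on 5 times of 3 arrays that share a time course and an array-wide scaling. Besides each other, Nefl was most like Ifi30 (r 0.93, rho 0.946) and Id1 (r 0.921, rho 0.857), and Nefm was most like Atp1b1 (r 0.94, rho 0.893) and Cstb (r 0.925, rho 0.914). Id1 encodes an inhibitor of basic helix-loop-helix factors and Atp1b1 a sodium pump subunit, and their log2 changes at 48 h were -1.42 ± 0.17 and -1.02 ± 0.12. Dcx was most like Col19a1 (r 0.953, rho 0.832), a collagen chain, and Dlk1 (r 0.952, rho 0.9), a transmembrane protein of the Notch ligand family. Next came Myot (r 0.942, rho 0.889), the Z-disc protein myotilin, whose log2 change at 48 h was 1.77 ± 0.49. The Dcx probe set used was 1418141_at, in which single arrays stood far above the others at 0 h and at 4 h. Tubb3 was most like Sars, the seryl-tRNA synthetase gene, through 2 of its probe sets (r 0.939 and 0.929, rho 0.921 and 0.911). Next came Atf3 (r 0.928, rho 0.836), a stress-induced transcription factor with a log2 change of 3.89 ± 0.43 at 48 h. Vim was most like Rps3 (r 0.937, rho 0.886) and Rps29 (r 0.927, rho 0.936), which encode ribosomal proteins, and Actg1 (r 0.926, rho 0.929), cytoplasmic gamma-actin. For Des the highest r was 0.879 (rho 0.854), with Atp5a1, and for Nes it was 0.878 (rho 0.882), with Mphosph8.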

How the data were processed

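Total RNA of extraocular muscle cultures from the mouse was hybridised to Affymetrix A and B arrays, 15 of each. Each deposited file lists 1 linear intensity per probe set, made by a standard Affymetrix protocol per the labels. What software, background correction and probe summary the authors used is not given in the sources used here. In every column the deposited intensities have a mean, after the lowest and highest 2% are left out, of 500.2 (A) or 500.1 (B), so arrays had been scaled. Column medians ran from 154.7 to 181.5 (A) and from 272.8 to 297.7 (B).

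Symbols came from the platform table, updated through Entrez identifiers: 20393 A and 14674 B probe sets had 1 symbol, 691 and 245 several, 1606 and 7656 none. The 64 control probe sets per type and dim probe sets were left out, which left 13577 and 13506. The log2 of intensity plus 16 was fitted in R 4.3.3 by limma 3.58.1, with lmFit on 1 mean per time, 10 residual degrees of freedom and an intensity trend in eBayes. Benjamini-Hochberg adjustment ran over all probe sets of a comparison. Precision is limited by the number of arrays: the median standard error of log2 changes was 0.179 (A) or 0.266 (B). The method was also run on simulated arrays, with noise drawn independently for each probe set and array and with no shared culture or array effect. That run cannot speak to such effects in these data, and its outcome is not given here.

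The 7 genes and the 11 lists, with 154 genes, were chosen with earlier results of these data known. Of each list, up to 4 genes past the threshold at 24 or 48 h with the largest moderated statistic were named, through the probe set with the highest A array mean (B where A had none past the filter). Prph, Lmna, Cryab, Gap43, Map2, Mapt, Sox10, Mcam, Myod1, Col1a2, Dcn and Pdgfra were named after their values were seen. So were Acta2, Cspg4, Rgs5, Gfap, Erbb3, Pmp22, Mbp, Uchl1, Elavl2, Isl1 and Stmn2. The alternatives were quantile normalization, median scaling, pseudocounts of 4 and 64, no filter, a filter at the 60th percentile, no intensity trend, the replicate number as a block, a fit to only the times compared, and leaving out arrays in turn. matplotlib 3.10.9 drew the figures.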

Additional observations from a re-analysis of the deposited data

How the results depend on the processing

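No change of the 7 genes past the threshold reversed its sign under any of the 9 other settings or without any array. The 12 h count of their A array probe sets, 1, was 0 with median scaling, a pseudocount of 4, no filter, a filter at the 60th percentile, no intensity trend or only the times compared, was 2 with a pseudocount of 64, and ranged from 0 to 2 without each array. The 24 h and 48 h counts, 2 and 5, were 0 and 1 with the 60th-percentile filter, under which Nefl, Nefm, Tubb3 and all Dcx probe sets except 1418141_at were too dim to be tested, and ranged from 2 to 5 (5 without 4 h replicate 2, 4 without 0 h replicate 3) and from 4 to 6 without each array. The 48 h count was 6 with the replicate block, which moved no other count of these genes. A pseudocount of 64 brought the 48 h log2 changes of Nefl, Nefm and Dcx 1418141_at to -1.61, -1.65 and 2.56, because a larger pseudocount shrinks changes of dim probe sets. Median scaling moved the median of all A array probe sets at 48 h by -0.10 on the log2 scale.

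Of 99 list genes tested, 5 passed at 12 h (Actn2, Mb, Myh8, Tnnc2 and Notch3, all higher). At 24 h 17 passed, 16 higher and 1 lower, and at 48 h 16 passed, 13 higher and 3 lower. Of all A array probe sets tested, 0.368% passed at 12 h, 5.56% at 24 h and 6.7% at 48 h. On the B arrays the shares were 0.074%, 0.97% and 0.933%. The lists were chosen with earlier results known, so nothing is read from these counts. The 12 h count was 0 with median scaling, no filter, no intensity trend or only the times compared, and 3 with a pseudocount of 4 or the replicate block. It ranged from 0 to 9 without each array, the 24 h count from 10 (without A array 0 h replicate 1) to 19, and the 48 h count from 8 (without the same array) to 17. Replicate numbers gave no clear pairing of the arrays: deviations of same-numbered A arrays correlated from -0.364 to 0.421, and 6 of 15 arrays correlated best with their own number. For the B arrays the range was -0.101 to 0.113, and 5 of 15 correlated best with their own number. With 3 arrays per time, these values cannot exclude that replicates of 1 number shared a culture.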
